A study of Austrofundulus limnaeus and Nothobranchius furzeri and Aphyosemion australe with 30 samples.

Results

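In embryos of the African turquoise killifish (Nothobranchius furzeri), 701 of 60359 consensus peaks of accessible chromatin (1.16%) were lower in diapause than in development at every diapause stage sampled. The peaks were chosen by their values in the same 9 libraries that are described here. In each of them, all 5 diapause libraries lay below all 4 development libraries. On the log2(value + 1) scale, both diapause stage means lay at least 1 below the smaller of the Pre-Dia and Dev means, and these 2 means were less than 1 apart. The difference between diapause and development is therefore what selected the peaks, and it is given as a description with no test. They are called closed peaks below, and all other peaks are named as such.

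Diapause is a state of suspended development that embryos of this annual fish can enter inside the egg, in which the forming organs are held in place while the pond is dry. Chromatin was profiled by ATAC-seq. The Tn5 transposase cuts and tags DNA that is not tightly wrapped, so that a peak of reads marks an open stretch. Such stretches include promoters and enhancers, where transcription factors bind and the activity of nearby genes is set. A stretch that gives fewer reads in one state than in another may be open in fewer cells, or less open in each cell. In pools of whole embryos these cannot be told apart. The study reports that some of its libraries lacked a strong nucleosome pattern and describes them as over-transposed. It found its other quality measures above the recommended thresholds. Whether library quality had a part in the values here was not tested. The number of peaks under another scaling of the libraries is given below, but the part of scaling in the other values was not tested.

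The series holds 30 samples from 4 killifish species, of which the 9 African turquoise killifish libraries are used here. All were wild-type and untreated embryo bodies without yolk and chorion, pooled before nuclei were taken. Dia 6d embryos had spent 6 days in diapause (2 libraries) and Dia 1m embryos 1 month (3 libraries). Pre-Dia embryos had a Kupffer's vesicle, an early structure of the embryo, and Dev embryos were past it with a beating heart (2 libraries each). Pre-Dia embryos were sampled before any diapause and were taken from early clutches of young parents, which mostly go on to develop. The stages differ in age as well as in state, so that diapause and time since fertilization cannot be told apart. Values are reads per peak divided by a factor for each library, called normalized reads.

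Diapause libraries held 3.22 to 3.94 megareads in consensus peaks and development libraries 2.26 to 6.24 megareads. The lowest value that the table holds is 1 read, which can stand for 0 or 1. The closed peaks took 0.431 to 0.556% of these reads in diapause libraries, against 1.38 to 1.69% in development libraries. Over all consensus peaks, the library medians were nearly level, between 32.2 and 34.5 normalized reads. Dia 1m replicate 3 was the diapause library nearest to development in 210 closed peaks of the 701 (30.0%). It was the highest diapause library in 28.4% of all consensus peaks. The same shares were 22.3 and 15.8% in Dia 6d replicate 1 and 20.3 and 15.1% in Dia 6d replicate 2. They were 12.8 and 10.1% in Dia 1m replicate 1 and 14.7 and 30.5% in Dia 1m replicate 2. Dev replicate 1, which had the most reads in consensus peaks, was the lowest development library in 276 closed peaks (39.4%). It was so in 28.6% of all consensus peaks. The part of the number of reads in this was not tested. Without Dia 1m replicate 3 the rule gave 828 peaks, of which 652 were among the 701, and without Dev replicate 1 it gave 900, of which 641 were.

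The conditions of the rule were applied in turn. Full separation of the libraries, with diapause on the lower side, was found in 3872 consensus peaks, 6.41% of those tested, and 714 of these also met the drop. A further 13 of the 714 were left out because Dev and Pre-Dia were 1 or more apart, 5 with Dev higher and 8 with Pre-Dia higher. The mirrored rule, with diapause above development, gave 684 of 2689 separated peaks. By count under the full rule, peaks lower and peaks higher throughout diapause were thus about equally many. Separated peaks were more often on the lower side (3872 against 2689).

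Closed is a relative term for these peaks. The median closed peak had 17.2 normalized reads in diapause and 51.7 in development, against 32.9 and 33.3 for the median of all consensus peaks. It kept 35.2% of its development signal in diapause, with a range from 11.4 to 49.3% over the closed peaks. In contrast, 83 of the 701 kept under 25%, and 165 kept 40% or more. The median difference was -1.51 on the log2 scale. Set per length, the median closed peak had 45.6 normalized reads per kb in diapause and 134 in development, against 78.8 and 82.0 per kb over all consensus peaks. The median closed peak was therefore above the usual height in development and below it in diapause, a split that the drop required by the rule favours.

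Lower signal in diapause was set by the rule in every closed peak, and the amount left differed between peaks. Diapause means fell below the median of all consensus peaks in 543 of the 701, and below the 10th percentile of them in 278 (39.7%). In development, 530 lay above the median of all consensus peaks. Every diapause library held 10 or more reads in 339 closed peaks. At least 1 diapause library was at the floor of 1 read in 65 peaks, and in 0 of the 701 were all 5 diapause libraries at 3 reads or fewer. At least 1 diapause library thus held more than 3 reads in every closed peak. Reads outside peaks were not counted, so whether such low counts mark open chromatin was not tested.

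The median closed peak had 18.8 and 17.9 normalized reads in the Dia 6d libraries and 15.7, 15.1 and 19.0 in the Dia 1m libraries, against 54.1 in each Pre-Dia library and 46.3 and 50.3 in the Dev libraries. The diapause libraries were close to one another, and the box plot of all closed peaks by library shows their upper quartiles near the lower quartiles of the development libraries.

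**Figure D1:**
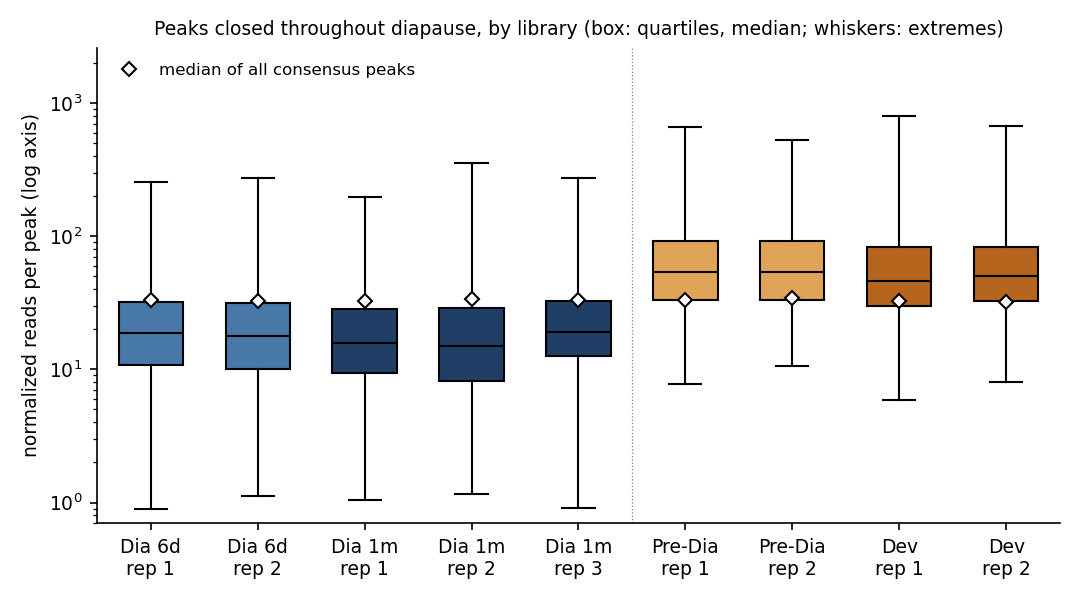
Normalized reads per peak on a log axis for the 701 closed peaks in each of the 9 libraries, with diapause libraries on the left and development libraries on the right. Boxes show quartiles and the median, whiskers the lowest and highest peak, and diamonds the median of all consensus peaks, which lies above every diapause median of the closed peaks (15.1 to 19.0) and below every development median (46.3 to 54.1).

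Most closed peaks sat near the limit of the rule. The smaller of the drops had a median of 1.19 on the log2 scale and a range from 1.00 to 2.46, and was under 1.2 in 366 peaks, at least 1.5 in 119 and at least 2 in 14. The gap between the lowest development and the highest diapause library had a median of 0.64. The SD between libraries of a stage had a median of 0.44 over the closed peaks and 0.46 over all consensus peaks. The usual gap was therefore wider than the usual spread between replicates, as the rule favours.

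The largest difference was that of peak_13116, a stretch of 396 bp on sequence NC_029652.1 from 43965342 to 43965737. It had 13.5 and 3.35 normalized reads in Dia 6d and 3.15, 1.16 and 6.33 in Dia 1m, against 50.8 and 27.0 in Pre-Dia and 36.9 and 61.7 in Dev. The diapause mean was 5.49 ± 4.82 (SD, n = 5) and the development mean 44.1 ± 15.3 (SD, n = 4), a log2 difference of -2.93. Its highest diapause library, Dia 6d replicate 1, still lay well under the lowest development library, and Dia 1m replicate 2 was at the floor of 1 read.

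The next, peak_20698 (NC_029654.1, 59828457 to 59828799), was far stronger. It had 51.1 and 63.7 normalized reads in Dia 6d and 17.8, 26.6 and 17.2 in Dia 1m, against 339 and 278 in Pre-Dia and 187 and 272 in Dev. In this peak the 3 Dia 1m libraries lay below both Dia 6d libraries, and both diapause stages lay far below development (log2 difference -2.91). Since its lowest library held 17 reads, this difference did not rest on libraries at the floor.

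On a short scaffold, peak_55562 (NW_015446234.1, 17834 to 18023) had the smallest share left, 11.4% of its development signal. It had 2.69 and 1.12 normalized reads in Dia 6d and 1.05, 1.16 and 6.33 in Dia 1m, against 12.2 and 22.5 in Pre-Dia and 27.5 and 20.8 in Dev. With 1 read in 3 of the 5 diapause libraries, that share depends on the floor.

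Relative to their mean, the diapause libraries were less spread in peak_46318 (NC_029667.1, 6979255 to 6979707) and peak_11251 (NC_029652.1, 6973970 to 6974340) than in the peaks above. Peak_46318 had 6.28 and 3.35 normalized reads in Dia 6d and 9.44, 5.79 and 9.04 in Dia 1m, against 58.6 and 31.5 in Pre-Dia and 69.1 and 41.6 in Dev. Peak_11251 had 8.07 and 3.35 in Dia 6d and 12.6, 9.27 and 7.23 in Dia 1m, against 46.4 and 52.6 in Pre-Dia and 53.9 and 49.0 in Dev. In peak_11251 the development libraries lay within a narrow range, and the gap to the highest diapause library, 1.80 on the log2 scale, was the widest of all 701 peaks.

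The remaining 3 of these 8 peaks had wider spreads in diapause, relative to their mean. Peak_45252 (NC_029666.1, 10371497 to 10371756) had 6.28 and 14.5 normalized reads in Dia 6d and 2.10, 8.11 and 3.61 in Dia 1m, against 54.1 and 84.1 in Pre-Dia and 45.7 and 41.6 in Dev. Peak_3804 (NC_029649.1, 86772279 to 86772483) had 6.28 and 6.71 in Dia 6d and 2.10, 1.16 and 6.33 in Dia 1m, against 32.0 and 57.1 in Pre-Dia and 17.6 and 37.6 in Dev. Peak_14291 (NC_029652.1, 70335503 to 70335736) had 5.38 and 3.35 in Dia 6d and 14.7, 1.16 and 9.94 in Dia 1m, against 32.0 and 69.1 in Pre-Dia and 27.5 and 33.6 in Dev. In peak_14291 the Dia 1m libraries alone spanned more than a 10-fold range, with replicate 2 at the floor, whereas in peak_45252 both Pre-Dia libraries lay above both Dev libraries.

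**Figure D2:**
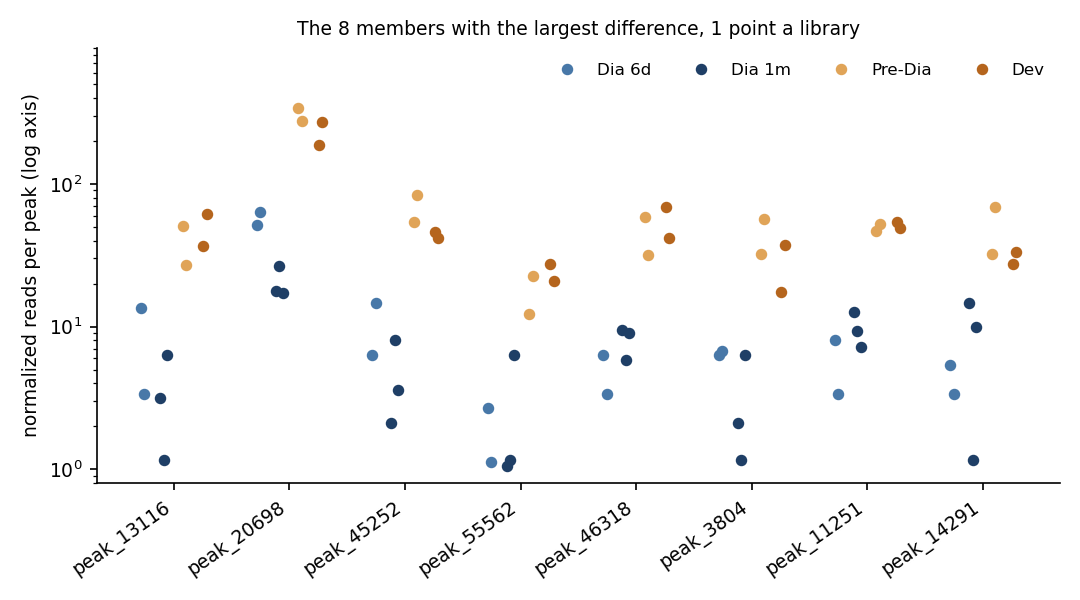
Normalized reads on a log axis in each library for the 8 closed peaks with the largest log2 difference between diapause and development, with Dia 6d and Dia 1m in blue on the left of each peak and Pre-Dia and Dev in brown on the right. The Dia 1m points of peak_20698 (17.2 to 26.6) lie below its Dia 6d points (51.1 and 63.7), whereas the points of these stages overlap in peak_13116.

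The 4 closed peaks with the highest development signal kept 32.9 to 46.8% of it, against a median of 35.2% over all closed peaks. Peak_50299, 1511 bp on scaffold NW_015443988.1 from 224208 to 225718, had 202 and 226 normalized reads in Dia 6d and 159, 237 and 205 in Dia 1m, against 577 and 483 in Pre-Dia and 796 and 667 in Dev. It kept 32.9% of its development signal, and its diapause libraries still held more reads than most consensus peaks do. Peak_10245 (NC_029651.1, 62223856 to 62225017) had 254 and 264 in Dia 6d and 198, 357 and 276 in Dia 1m, against 658 and 520 in Pre-Dia and 535 and 579 in Dev. At 46.8% of its development signal, peak_10245 was near the highest share that the rule allows.

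Peak_24460 (NC_029656.1, 8619821 to 8620734) was also among the 4 highest. It had 247 and 246 normalized reads in Dia 6d and 121, 126 and 165 in Dia 1m, against 535 and 532 in Pre-Dia and 447 and 546 in Dev. The Dia 6d level of this peak set its distance from the limit, while its Dia 1m libraries all lay lower. The other one, peak_30081 (NC_029658.1, 12130388 to 12131312), had 241 and 272 in Dia 6d and 185, 250 and 152 in Dia 1m, against 538 and 494 in Pre-Dia and 446 and 591 in Dev. Here the diapause stages overlapped.

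Both of these stood just inside the drop of 1, together with peak_3968 (NC_029649.1, 89147481 to 89148002). Peak_3968 had 22.4 and 25.7 normalized reads in Dia 6d and 17.8, 20.9 and 36.1 in Dia 1m, against 48.6 and 49.6 in Pre-Dia and 57.4 and 53.0 in Dev. Just outside stood peak_20019 (NC_029654.1, 49566777 to 49567455), with 57.4 and 59.2 in Dia 6d and 56.7, 57.9 and 51.5 in Dia 1m, against 107 and 129 in Pre-Dia and 198 and 144 in Dev. The gap between the states was 0.84 on the log2 scale in peak_20019, against 0.42 in peak_3968, 0.71 in peak_30081 and 0.85 in peak_24460. The other 2 just outside, peak_34403 and peak_22727, had means of 16.4 and 14.3 normalized reads in diapause and 34.0 and 33.1 in development, with narrower gaps of 0.26 and 0.36.

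Closed peaks were not set apart by width. Their median width was 397 bp, against 407.5 bp for the peaks higher throughout diapause and 421 bp for all consensus peaks. When all consensus peaks were divided by width into 5 equal groups, 1.02 to 1.31% of each were closed peaks, and when divided by mean signal 1.02 to 1.35% were. The 119 closed peaks with a drop of at least 1.5 were narrower, with a median of 316 bp.

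The widest closed peaks kept between 32.3 and 40.2% of their development signal. Peak_10402, 1882 bp on NC_029651.1 from 64643024 to 64644905, had 135 and 163 normalized reads in Dia 6d and 71.4, 91.5 and 83.1 in Dia 1m, against 455 and 362 in Pre-Dia and 313 and 301 in Dev. All Dia 1m libraries were lower than both Dia 6d libraries in this peak. Peak_29076 (NC_029657.1, 54166789 to 54168318, 1530 bp) had 135 and 169 in Dia 6d and 133, 117 and 149 in Dia 1m, against 413 and 392 in Pre-Dia and 343 and 354 in Dev. Its diapause stages overlapped, as did those of peak_17014 (NC_029653.1, 55074482 to 55076089, 1608 bp), which averaged 83.7 normalized reads in diapause and 208 in development.

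To ask how far the choice of peaks held in a library that took no part in it, each library was left out in turn and the rule was applied to the other 8. The libraries share stages with those that chose the peaks, so that the result is a description of these 9 libraries. In 88.3 to 97.5% of the peaks so chosen, the library left out lay beyond every library of the other state (median 93.3%). Over all consensus peaks, which were not chosen by a difference between the states, the same held in 21.2 to 29.9%. The libraries of the other state took part in the choice, so that this share is no measure of what chosen peaks would give without a difference. The peaks so chosen numbered 630 to 900, and 521 to 652 of them were among the 701.

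A second limit was the midpoint between the 2 states, set by the libraries that were not left out. Those libraries also chose the peaks, so the share over all consensus peaks is again no baseline for chosen peaks. The library left out lay on its own side of the midpoint between the 2 states in 70.9 to 95.2% of the peaks (median 87.3%), against 47.1 to 54.3% of all consensus peaks. The lowest shares were those of Dia 1m replicate 3 (70.9%), Dia 6d replicate 1 (73.8%) and Dia 6d replicate 2 (79.8%). The median log2 difference of the diapause library left out from development was -1.15 and -1.23 for Dia 6d and -1.45, -1.50 and -1.13 for Dia 1m, in replicate order. For the diapause libraries that chose the peaks it was -1.58 to -1.52. The median difference of the development library left out from diapause was 1.51 and 1.44 for Pre-Dia and 1.24 and 1.49 for Dev, against 1.51 to 1.53 for the development libraries that chose the peaks. The difference was smaller in each library when left out, by little in Pre-Dia replicate 1, Dev replicate 2 and Dia 1m replicates 1 and 2, and by more in the other libraries.

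**Figure D3:**
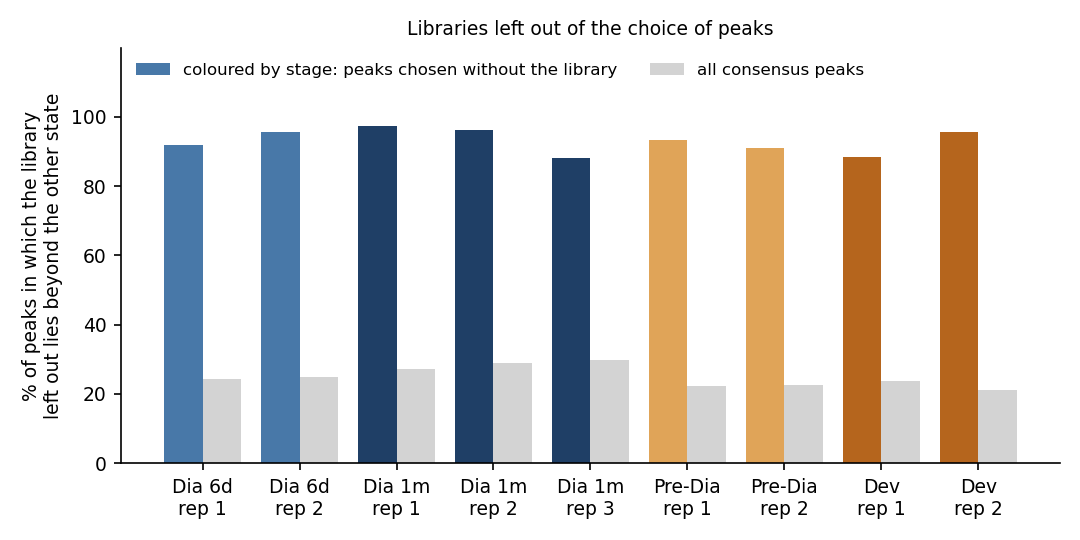
Share of peaks (%) in which the library left out lay beyond every library of the other state, for the peaks chosen by the rule on the other 8 libraries (left bar of each pair, coloured by stage) and for all consensus peaks (right bar, grey), with diapause libraries on the left. The chosen peaks reach 88.3% or more in every library and all consensus peaks at most 29.9%. The libraries of the other state took part in the choice, so the grey bars are no baseline for chosen peaks.

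The rule set no order between the diapause stages, which asks whether closed peaks went on closing between 6 days and 1 month. It did cap both stage means from above. Over the closed peaks the median difference, Dia 1m minus Dia 6d, was -0.09 on the log2 scale, against 0.01 over all consensus peaks. Dia 1m had the lower mean in 424 closed peaks (60.5%) and in 49.5% of all consensus peaks. Without Dia 1m replicate 2 the medians were -0.04 over closed peaks and -0.03 over all consensus peaks, and without Dia 1m replicate 3 they were -0.19 and 0.02. Whether the closed peaks stood apart from the rest between these stages thus depended on a single library.

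Peak by peak, the stages were alike in most cases within the spread of the libraries. The difference was under 0.5 in either direction in 537 closed peaks (76.6%), against 66.4% of all consensus peaks. It was at least 0.5 downwards in 114 (16.3%), against 17.1%, and at least 0.5 upwards in 50 (7.13%), against 16.4%. Every Dia 1m library lay below every Dia 6d library in 66 closed peaks (9.42%), against 12.1% of all consensus peaks. Every Dia 1m library lay above every Dia 6d library in 21 of the 701, against 9.97%. Both shares were under those of all consensus peaks. The rule set every diapause library below every development library, so these shares are not read as a trait of the closed peaks. Closed peaks also held fewer reads in diapause, with library medians of 13 to 21 reads against 29 to 37 over all consensus peaks.

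With limma on log2(value + 1) and Benjamini-Hochberg adjustment over all consensus peaks, 0 closed peaks were called lower in Dia 1m than in Dia 6d at an adjusted p of 0.05, where 17 of all consensus peaks were (0.0282%). None were called higher, as in all consensus peaks (0 peaks, 0%). At an unadjusted limma p under 0.05, 34 of the 701 closed peaks differed, 25 of them lower in Dia 1m. Among all 60359 consensus peaks 4953 did, a larger share. On recovered reads, edgeR called 0 closed peaks (0.058% of all consensus peaks lower and 0.00166% higher). DESeq2 called 2, both lower (0.161% of all consensus peaks lower and 0.0364% higher). The 2 were peak_20698 and peak_28945, the second named after its values were seen. The limma calls were 7 without Dia 1m replicate 2, 3 without Dia 1m replicate 3 and 0 without any other single library, all lower in Dia 1m, with peak_20698 and peak_28945 among both. Of all 60359 consensus peaks, 1157 were called without Dia 1m replicate 2 (884 lower, 273 higher) and 357 without Dia 1m replicate 3 (245 lower, 112 higher). With both directions counted, the share called was smaller among the 701 closed peaks than among all consensus peaks in both cases. For calls lower in Dia 1m, it was smaller without Dia 1m replicate 2 and about level without Dia 1m replicate 3. Closed peaks were limited in both diapause stages by the rule and held fewer diapause reads, so nothing is read from these shares.

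Peak_28945 (NC_029657.1, 52249876 to 52250224) had 58.8, 122 and 61.5 normalized reads in Dia 1m and 153 and 260 in Dia 6d, against 537 and 511 in Pre-Dia and 404 and 468 in Dev. The stages did not overlap, and the log2 difference, Dia 1m minus Dia 6d, was -1.38 ± 0.33 (SE; limma adjusted p = 0.174). For peak_20698, whose libraries are given above, it was -1.46 ± 0.34 (SE; limma adjusted p = 0.141). These were the closed peaks with the lowest limma p between the stages, and neither passed the threshold of the limma test.

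The largest fall in mean between the stages belonged to peak_50788 (NW_015444012.1, 36727 to 37053). It had 5.25, 3.48 and 6.33 normalized reads in Dia 1m and 8.97 and 25.7 in Dia 6d, a log2 difference of -1.47 (limma adjusted p = 0.443). Peak_29623 (NC_029658.1, 4160344 to 4160577) had 5.25, 3.48 and 6.33 in Dia 1m and 17.0 and 13.4 in Dia 6d (-1.45; limma adjusted p = 0.479). All Dia 1m libraries were below all Dia 6d libraries in both peaks, but with 3 to 7 reads in each Dia 1m library.

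The 3 largest gains between the stages were in peaks with 1 to 12 reads in each Dia 6d library. Peak_50977 (NW_015444023.1, 157439 to 158046) had 16.8, 11.6 and 19.9 normalized reads in Dia 1m and 10.8 and 2.24 in Dia 6d, a log2 difference of 1.44 (limma adjusted p = 0.455). Peak_23492 (NC_029655.1, 51367261 to 51367440) had 5.25, 11.6 and 9.04 in Dia 1m and 5.38 and 1.12 in Dia 6d (1.33; limma adjusted p = 0.644). Peak_17431 (NC_029653.1, 62760684 to 62761217) had 13.6, 17.4 and 12.7 in Dia 1m and 2.69 and 10.1 in Dia 6d (1.27; limma adjusted p = 0.525). Every Dia 1m library lay above both Dia 6d libraries in peak_50977 and peak_17431, whereas the stages overlapped in peak_23492. The Dia 6d libraries at 2.24 and 1.12 held 2 reads and 1 read.

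The rule limited the difference between Dev and Pre-Dia to less than 1, and nothing is read from it. Dev had the lower mean in 438 closed peaks (62.5%) and in 50.3% of all consensus peaks, with a median difference, Dev minus Pre-Dia, of -0.10 over closed peaks and -0.01 over all consensus peaks. With limma, 0 closed peaks were called, against 0.00994% of all consensus peaks lower and 0.0762% higher in Dev. At an unadjusted limma p under 0.05, 7 of the 701 closed peaks differed, against 8497 of all 60359 consensus peaks, a larger share. On recovered reads, edgeR called 0 closed peaks (0.0298% of all consensus peaks lower and 0.0961% higher in Dev), and so did DESeq2 (0.171% lower and 0.664% higher). The limma call was 1 closed peak without Dia 1m replicate 2, against 2069 of all consensus peaks, and 1 without Dia 1m replicate 3, against 3568.

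The position of the peaks was not used by the rule. Closed peaks lay on all 19 sequences named NC, with 563 peaks in all, at 0.745 to 1.72% of the consensus peaks of a sequence. The other 138 lay on 115 of the 3298 scaffolds named NW that hold consensus peaks. The highest share belonged to NC_029657.1, with 46 closed peaks of 2668, and the lowest to NC_029667.1, with 7 of 939. Closed peaks were thus spread over the whole assembly, at shares that differed by a little more than 2-fold between the long sequences.

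Along the long sequences they were less even, a pattern that was noticed in these data and is described with no test. When each sequence was divided by length, up to its last consensus peak, into 10 segments numbered as the assembly runs, closed peaks made up 1.97 and 1.90% of the consensus peaks in segments 9 and 10. Pooled over sequences, these segments held 1.93% closed peaks, against 0.984% in the first 8 (from 0.588% in segment 5 to 1.61% in segment 3). The share was higher in segments 9 and 10 in 13 of 19 sequences. It was lower there in the others, such as NC_029659.1 (0.559 against 1.55%). Of the 206 closed peaks in segments 9 and 10, NC_029649.1 held 24 and 11, NC_029657.1 7 and 22, and NC_029651.1 14 and 9. The pooled shares thus rest in large part on these sequences. Peaks higher throughout diapause had the opposite pooled pattern, with 0.694% in the last 2 segments and 1.34% in the first 8. The median log2 difference of all other consensus peaks, diapause minus development, was -0.13 and -0.16 in segments 9 and 10 and 0.12 in segment 5. In segment 3 it was -0.02, nearer 0 than the -0.05 and -0.09 of segments 1 and 2, which held fewer closed peaks (1.01 and 1.04%).

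**Figure D4:**
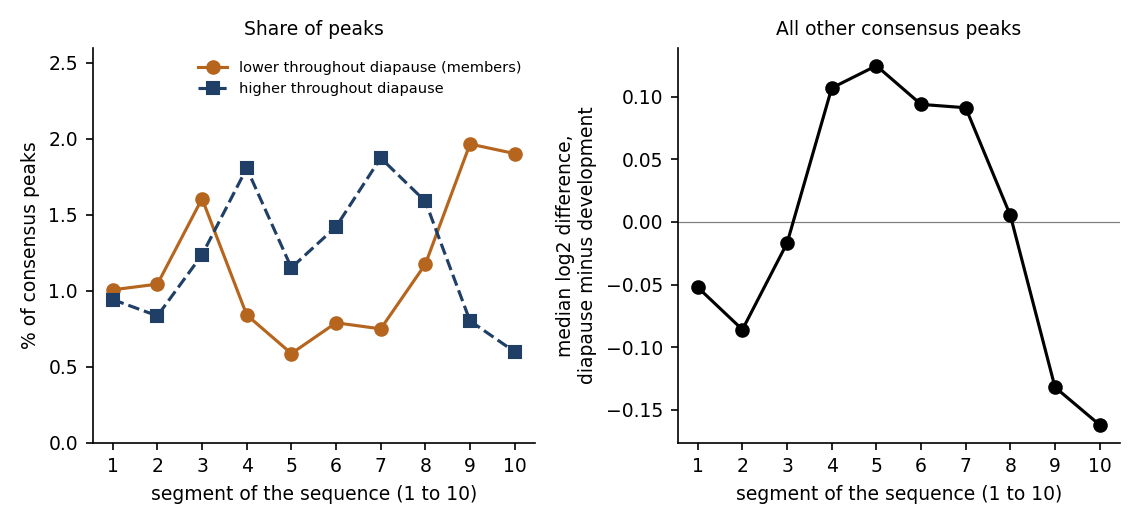
Left, share of consensus peaks (%) that were lower (closed peaks, circles) or higher (squares) throughout diapause, by segment of the 19 long sequences. Right, median log2 difference, diapause minus development, of the consensus peaks in neither set. Closed peaks are most frequent in segments 9 and 10 (1.97 and 1.90%), where the other peaks also have their lowest medians (-0.13 and -0.16).

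A few stretches held many closed peaks. Of 190 such segments, 8 held 10 or more, with 118 closed peaks between them, 21.0% of those on the long sequences in 6.27% of the consensus peaks. These segments were picked by their number of closed peaks, a choice that favours the higher of these shares. The fullest was segment 9 of NC_029649.1 (78783733 to 88613181), with 24 closed peaks of 446, peak_3804 among them. Segment 10 of NC_029657.1 (51648713 to 57366942) followed with 22 of 419, peak_28945 and peak_29076 among them. Segment 9 of NC_029651.1 (61187414 to 68805042) held 14 of 406, including the strong peak_10245 and the wide peak_10402.

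In these stretches the other consensus peaks were mostly lower in diapause too. The stretches were picked by closed peaks chosen in the same libraries, so these values are a description of those libraries. Over all consensus peaks the median log2 difference was -0.003. In segment 9 of NC_029649.1 the other consensus peaks had a median log2 difference of -0.51, and 82.4% of them were lower in diapause. The library medians of these other peaks, each taken as a deviation from the peak's own mean, did not overlap between the states. They were 0.03 and -0.06 in Dia 6d, -0.34, -0.30 and -0.28 in Dia 1m, and 0.27 to 0.35 in development libraries. In segment 10 of NC_029657.1 the median was -0.45 and in segment 9 of NC_029651.1 it was -0.41. Segment 3 of NC_029655.1, with 13 closed peaks of 219, had a median of -0.44. By contrast, segment 8 of NC_029654.1 also held 13 closed peaks, and its other peaks had a median of -0.13.

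Lower signal in diapause also faded with distance from a closed peak. The consensus peaks within 1000 bp of a closed peak, leaving out closed peaks and those higher throughout diapause, had a median log2 difference of -0.74, and 93.8% of these 81 peaks were lower in diapause. The median was -0.53 at 1000 to 2000 bp, -0.34 at 2000 to 5000 bp, -0.29 at 20000 to 50000 bp and -0.13 at 200000 to 500000 bp. It was 0.01 at 500000 to 1000000 bp and 0.10 beyond that or where the sequence held no closed peak. Around peaks higher throughout diapause the medians had the opposite sign, with 0.78 within 1000 bp. These neighbours were read in the same libraries as the closed peaks, so that the values are a description of those libraries.

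**Figure D5:**
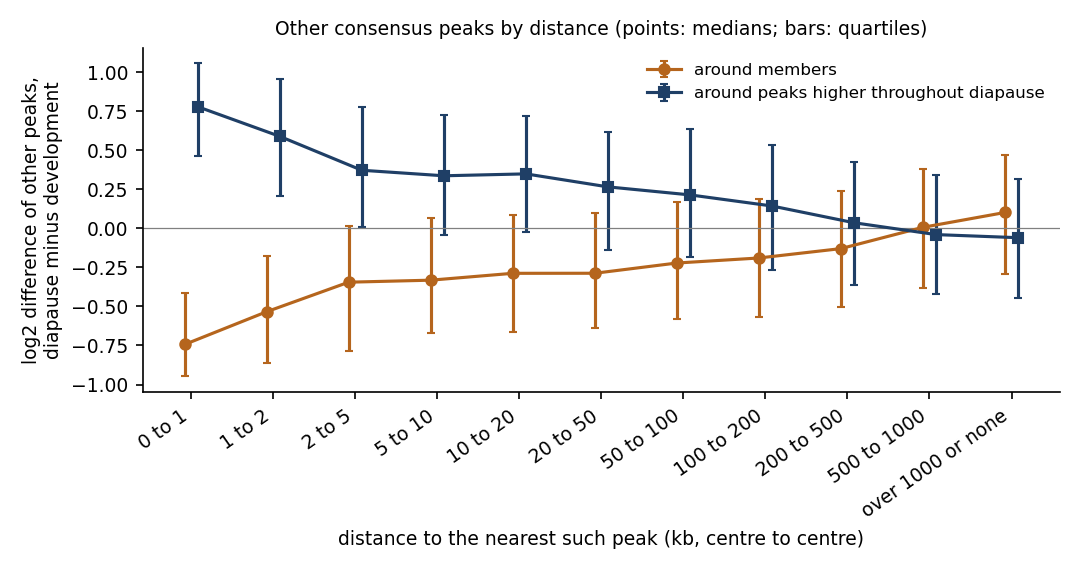
Log2 difference, diapause minus development, of consensus peaks in neither set, by distance from the centre of the nearest closed peak (circles) or of the nearest peak higher throughout diapause (squares). Points are medians and bars quartiles, and the last bin also holds peaks on sequences with no such peak. The median is -0.74 within 1000 bp of a closed peak and 0.10 in the last bin.

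The difference of each closed peak was then set beside that of its surroundings. For every peak on the long sequences, the local difference was the median over the other consensus peaks within 1000000 bp. Closed peaks and those higher throughout diapause were left out of this median. The local difference had a median of -0.18 around closed peaks and was below 0 in 80.5% of them. Over all consensus peaks these values were -0.02 and 53.6%. Less the local difference, the median difference of closed peaks was -1.33, a value that their selection on a drop of at least 1 largely sets. Over 5 equal groups of peaks from the lowest to the highest local difference, closed peaks made up 2.69, 1.44, 0.895, 0.735 and 0.234% of consensus peaks. When each library was centred on the peaks around, an alternative chosen after the data were seen, 376 peaks met the rule, and 272 of the 563 closed peaks on these sequences (48.3%) were among them. The other 291 did not meet it.

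Some closed peaks lay close to one another. Linking closed peaks less than 20000 bp apart gave 41 groups with 85 peaks (12.1%), against 12.4% of the peaks higher throughout diapause. Of these groups, 38 were pairs and 3 held 3 peaks. The median distance to the nearest other closed peak on the same sequence was 241026 bp. Most closed peaks therefore fell in no such group. How many groups an equal number of consensus peaks drawn at random would form was not counted, so the share is not read as low or high.

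The most compact group of 3 lay on NC_029650.1 from 79899784 to 79910010, with 3 other consensus peaks between its members. Its strongest member, peak_7031, had 41.3 and 43.6 normalized reads in Dia 6d and 21.0, 33.6 and 22.6 in Dia 1m, against 127 and 111 in Pre-Dia and 108 and 112 in Dev. Peak_7035 averaged 30.7 in diapause and 72.1 in development, and peak_7036 averaged 16.6 and 38.9. The 3 other consensus peaks in the span were also lower in diapause, with a median log2 difference of -0.81.

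On scaffold NW_015443988.1, from 152034 to 165415, peak_50288, peak_50289 and peak_50291 formed another group, with peak_50299, the closed peak with the highest development signal, further along the same scaffold. Peak_50288 had 57.4 and 50.3 normalized reads in Dia 6d and 49.3, 77.6 and 42.5 in Dia 1m, against 117 and 114 in Pre-Dia and 206 and 155 in Dev. Peak_50289 averaged 44.7 in diapause and 128 in development, and peak_50291 averaged 39.8 and 103. The only other consensus peak in the span had a log2 difference of -1.37, close to that of the members.

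The third group, peak_51328, peak_51330 and peak_51331, lay on scaffold NW_015444043.1 from 64919 to 82713. Peak_51328 had 12.6 and 16.8 normalized reads in Dia 6d and 28.3, 18.5 and 19.9 in Dia 1m, against 78.4 and 55.6 in Pre-Dia and 46.9 and 71.1 in Dev. Peak_51330 averaged 31.4 in diapause and 81.6 in development, and peak_51331 averaged 16.9 and 37.5. In peak_51331 the highest diapause library, Dia 6d replicate 1 at 24.2, came close to the lowest development library, Pre-Dia replicate 1 at 27.6.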

How the data were processed

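Open chromatin was measured by ATAC-seq in 9 African turquoise killifish libraries, grouped by their GEO labels. Per the study's methods and processing notes, the authors trimmed reads with Trim Galore 0.4.1, aligned them with Bowtie2 2.2.5, marked duplicates with Picard 2.22.1, removed duplicates and reads with a mapping quality under 20 with SAMtools 1.5, shifted reads for the Tn5 cut with deepTools 3.2.1, called peaks with MACS2 2.1.1.20160309 and built consensus peaks per species with DiffBind, which tested them with DESeq2 and edgeR. The assembly was Nfu_20140520, and coordinates are those of the authors' table. The consensus set was built from the same libraries, so a region had to pass peak calling to be listed.

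The deposited signal is named RPKM, but 100% of values in each library were whole multiples of 1 factor within 0.01 reads, with no division by width and a floor of 1 read. The signal was therefore tested with limma 3.58.1 (R 4.3.3) on log2(value + 1), with a trended prior, 4 groups and 9 libraries, two-sided, adjusted over 60359 peaks. The added 1 makes differences of weak peaks appear smaller than they are. The labels do not say that pools came from separate clutches, so p-values measure the spread between these pools, which may be technical. Count tests on the recovered reads (edgeR 4.0.16, DESeq2 1.42.0) were alternatives. The limma fit was tested on simulated data. Summaries used Python 3 with pandas and NumPy.

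The selected peaks, the lists and the rules were chosen with earlier results of these data known. Named peaks were, by rule, the 8 with the largest difference, the 4 with the highest development signal, the 4 widest, the 3 just inside and 3 just outside the drop of 1, the 3 largest falls and 3 largest gains from Dia 6d to Dia 1m, and the members of the 3 groups with the most peaks under 20000 bp apart. Tables of the other species were not used. Genes, motifs and sequences need a genome of this assembly and were not analysed here.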

Additional observations from a re-analysis of the deposited data

How the results depend on the processing

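The number of closed peaks, 701 as reported, was within 1.5 times of that under 15 of 18 alternatives, among them pseudocounts of 0.5 (739) and 4 (475) and quantile normalization (679, of which 609 were shared). It was 1310 with a drop of 0.8, 119 with a drop of 1.5 and 376 after centring on the peaks within 1000000 bp, which covers the long sequences alone and was chosen after seeing the data. Leaving out each library in turn gave 630 to 900. The number of closed peaks called between Dia 1m and Dia 6d, 0 as reported, was 2 with DESeq2, and 0 to 7 without each library in turn. Same-numbered libraries did not deviate together (12 pairs, correlations from -0.23 to 0.04, 0 of them over 0.1). In stages of 2 libraries the deviations mirror each other, so these pairs are not separate checks. The highest correlation between libraries of different numbers was 0.23 (Dev replicate 1 with Dia 1m replicate 2). Whether samples shared a clutch or batch cannot be told from these values. With the replicate number as a block in the fit, 2 closed peaks were called between Dia 1m and Dia 6d and 0 between Dev and Pre-Dia. Over all consensus peaks, 279 were called between Dia 1m and Dia 6d, against 17 without the block. Only Dia 1m has a replicate 3, so the block takes up that library in the fit. The medians between these stages, -0.19 over closed peaks and 0.02 over all consensus peaks, equalled those without Dia 1m replicate 3. Between Dev and Pre-Dia, 14 closed peaks were called with only the 2 stages in the fit (6110 of all consensus peaks), and 0 to 1 without each library in turn. The median difference, Dia 1m minus Dia 6d, ranged from -0.19 to -0.04 without each library in turn. The causes were not tested. DESeq2 gave no adjusted p for 29256 peaks between Dia 1m and Dia 6d and for 30426 between Dev and Pre-Dia. These stay out of its calls, while its shares are given over all consensus peaks. How many of them were closed peaks was not counted. Alternatives on motifs and on distance to transcription start sites were not run, since no genome of the assembly was used. With 2 or 3 libraries a stage and a floor of 1 read, changes of weak peaks within diapause are little resolved.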

Other observations

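A set of 54 consensus peaks met the drop and the limit on Dev and Pre-Dia without full separation of the libraries. In 49 of them a single diapause library reached into the range of development. Dia 1m replicate 3 was such a library in 28 of the 54, Dia 6d replicate 1 in 12, Dia 1m replicate 1 in 9, Dia 1m replicate 2 in 7 and Dia 6d replicate 2 in 4. Of the reads in consensus peaks, the peaks higher throughout diapause took 1.39% in Dia 1m replicate 3 and 1.69 to 2.28% in the other diapause libraries.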
